A study of Mus musculus with 6 samples.

Results

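Zinc metalloproteases and their tissue inhibitors were followed in 4T1-Luc2-RFP cells, a mouse mammary carcinoma line engineered with luciferase and red fluorescence genes. The members were all genes of the deposited table whose symbols begin with Mmp or Adam and a number, with Adamts, or with Timp and a number. This gave 55 of 13912 genes, which were 19 matrix metalloproteinases (MMP), 16 ADAM, 17 ADAMTS and ADAMTS-like and 3 TIMP genes. Their RNA was compared between 3 tumour libraries, made from cells of the line sorted by flow cytometry out of tumours in the mammary gland, and 3 cultured libraries, made from cells that were not injected. Libraries are numbered 1 to 3 within each group. The tumours are labelled MIND and the strain of all 6 libraries is labelled balb/c. The labels give no age, time in the gland or number of animals, and do not state separate cultures or animals for the libraries. The p-values therefore rest on library-to-library spread alone, possibly of technical origin. All libraries come from 1 line, and sorting is given for the tumour libraries alone.

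MMPs are made as inactive precursors whose propeptide must be removed, and together they cut collagens, elastin, laminins and many growth factor carriers. ADAMs are membrane proteins, several of which release the outer parts of growth factors, cytokines and receptors from the cell surface, and ADAMTS enzymes are secreted and process proteoglycans, procollagens and microfibrils. TIMPs block the active site of these enzymes, and in breast tumours much of the protease RNA is known to come from stromal and immune cells as well as from carcinoma cells.

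Sequences are shown first for the MMP cluster on chromosome 9, where 8 of the 19 MMP genes lie side by side within 309 kb (GRCm38, chr9:7272514-7581885). Each line gives the 120 bases before the RefSeq start (GRCm38.p6), 5′ to 3′ on the strand of the gene, with the AP-1 letters TGAGTCA (or TGACTCA on the other strand) and the TATA letters TATAAA (or TTTATA) in capitals. Mmp12 has a pair of RefSeq starts, and the one shown is the downstream one. The window before its upstream start (chr9:7344147-7344396) held neither the AP-1 nor the TATA letters. Mmp27, which had neither as well, is not shown.
Mmp13, chr9:7272394-7272513, plus strand: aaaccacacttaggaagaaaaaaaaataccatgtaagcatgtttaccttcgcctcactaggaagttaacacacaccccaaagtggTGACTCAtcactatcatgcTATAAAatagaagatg
Mmp12, chr9:7347254-7347373, plus strand: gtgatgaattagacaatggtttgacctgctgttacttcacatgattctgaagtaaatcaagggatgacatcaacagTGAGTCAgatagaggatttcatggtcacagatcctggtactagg
Mmp1b, chr9:7388027-7388146, minus strand: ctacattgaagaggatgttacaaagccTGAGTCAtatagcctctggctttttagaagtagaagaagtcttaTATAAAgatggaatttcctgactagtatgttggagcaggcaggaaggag
Mmp3, chr9:7445702-7445821, plus strand: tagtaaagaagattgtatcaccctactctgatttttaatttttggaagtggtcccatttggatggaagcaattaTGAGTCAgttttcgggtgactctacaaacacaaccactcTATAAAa
Mmp1a, chr9:7464021-7464140, plus strand: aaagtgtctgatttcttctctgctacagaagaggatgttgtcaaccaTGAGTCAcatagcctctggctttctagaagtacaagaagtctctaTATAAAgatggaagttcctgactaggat
Mmp10, chr9:7502222-7502341, plus strand: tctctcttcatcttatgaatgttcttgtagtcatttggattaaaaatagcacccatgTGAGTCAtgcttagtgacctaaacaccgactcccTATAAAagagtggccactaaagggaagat
Mmp8, chr9:7558309-7558428, plus strand: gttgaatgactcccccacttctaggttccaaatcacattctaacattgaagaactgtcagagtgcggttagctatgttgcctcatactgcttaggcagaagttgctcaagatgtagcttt

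Within 250 bases before a start, the AP-1 letters were found in 6 of the 8 cluster genes, all but Mmp8 and Mmp27. A gene was counted if any of its starts had a match, and Mmp12 had one before its downstream start alone. They were found in 0 of the 7 other MMP genes that have a promoter entry, in 7 of all 34 members that have one, and in 5.16% of 27025 genes. The TATA letters were found in 5 of the 8 cluster genes and in 14.3% of all genes. Counted from the base before the start as -1, the AP-1 letters of the 6 genes began between -93 in Mmp1b and -35 in Mmp13, and no AP-1 match overlapped a TATA match in the windows shown. The ETS letters AGGAAG (or CTTCCT) were in 7 of 15 MMP entries and in 32.3% of all genes. These matches describe letters in a window and were not set against binding.

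The 6 libraries held 35448588 to 41469090 reads in 13912 genes. The values are log2 CPM (reads scaled to a common library size) as deposited, and the reads behind them could be solved from the values, so levels below are given as CPM from those reads. All 20 epithelial and carcinoma markers were detected, at a summed 3054 to 3533 CPM in tumour and 3400 to 4136 CPM in cultured libraries. Of these 20, 1 rose and 9 fell, with a median change of -0.46, and Cdh1 and Elf3, an epithelial transcription factor, were among those that fell. Markers of host cells were present in the tumour libraries. All 17 macrophage and monocyte markers rose (summed 7128 to 10710 CPM in tumour, 28.3 to 39.6 in cultured libraries), as did the 13 neutrophil markers tested (1725 to 6891 and 2.93 to 15.6 CPM) and the 15 fibroblast markers (7694 to 9916 and 25.4 to 54.2 CPM). The 14 endothelial and pericyte markers rose as well (337 to 387 and 76.8 to 96.2 CPM). Every gene of the table had at least 61 reads over the 6 libraries. Host markers with fewer than 61 reads in culture are in the table through their tumour reads, so their rise was largely fixed. Of the listed markers, 4 of 14 lymphocyte, 3 of 7 adipocyte and 13 of 16 neutrophil markers were in the table. In bulk RNA fewer cells of a type and less RNA per cell cannot be told apart, and the part of host cells in each result below was not tested.

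At a limma adjusted p under 0.05, tumour libraries had 37 of the 55 genes higher and 2 lower, and 16 did not pass. Among all genes 29.5% were higher and 18.8% lower (48.2% either way). With a change of at least 2-fold as well, 34 members were higher and 1 was lower, beside 24.1% and 8.42% of all genes. The median log2 change, tumour minus cultured, was 1.95 over the members and 0.08 over all genes. By family, 15 of 19 MMP, 7 of 16 ADAM, 13 of 17 ADAMTS and 2 of 3 TIMP genes rose, and the genes that fell were Mmp24 and Adamtsl5. The groups did not overlap in 39 members that were higher and 2 that were lower, where 34.6% of all genes were separated upwards and 25.2% downwards. No gene of the table had fewer than 61 reads over the 6 libraries. A total of 21 members had fewer reads than that in culture. For 20 of these, the place in the table rests on tumour reads and the direction was largely fixed. The other, Adam32, had 47 cultured and 53 tumour reads and did not pass. Those 20 are among the 37 that rose, and the counts above are not support for a change of the families. Mmp24, with 14 tumour reads, is in the table through its cultured reads, so its fall was largely fixed too. Not tested here were 4 MMP genes annotated as protein-coding (Mmp7, Mmp16, Mmp20 and Mmp21), 17 ADAM genes, 7 ADAMTS genes and Timp4.

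**Figure D1:**
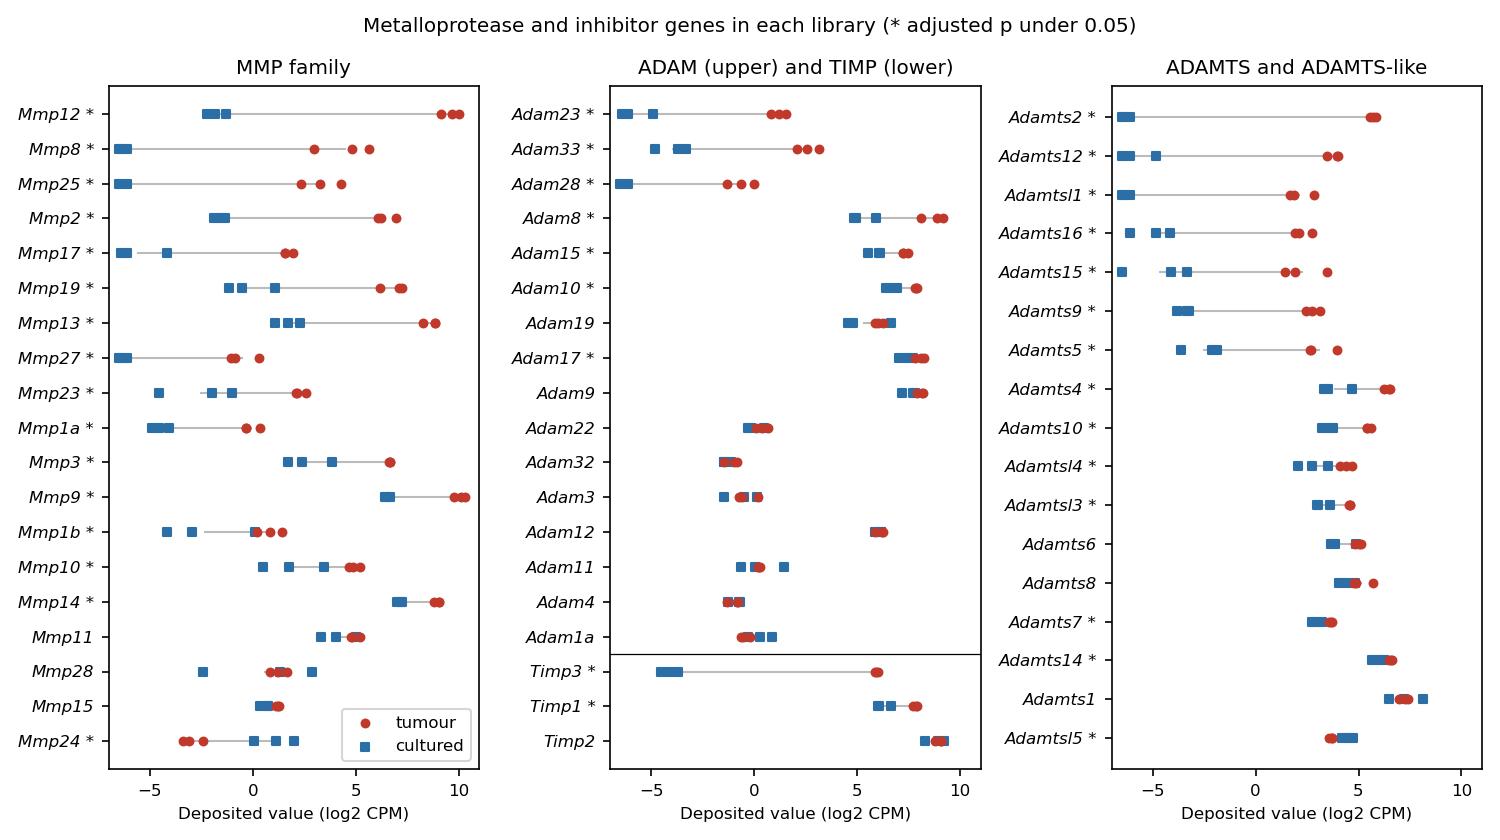
Deposited log2 CPM (horizontal axis) of each of the 55 genes in the 3 tumour libraries (circles) and the 3 cultured libraries (squares), by family and ordered by change; the grey line joins the group means and a star marks a limma adjusted p under 0.05. Mmp8, Mmp25 and Adamts2 had 0 reads in culture and stand at its lowest values, while Mmp9, Mmp14, Adam10 and Timp2 were read in both groups.

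The gelatinases, which cut denatured and basement membrane collagen, had both of their genes higher in the tumour libraries. Mmp9 (chr2:164940780-164955850) had 1291, 1113 and 865 CPM in tumour libraries, against 88.8, 85.5 and 100.3 CPM in cultured libraries. Its log2 change was 3.56 (SE 0.19, limma adjusted p = 3.47e-06). Per length of merged exons it was the most abundant MMP in both groups. Its mean share of the family total was 37.3% in tumour and 38.2% in cultured libraries. In CPM alone, Mmp14 stood above it in culture. Mmp2 (chr8:92827291-92853420) had 74.7, 67.2 and 124 CPM in tumour libraries, against 0.328, 0.375 and 0.258 CPM in culture, where 40 reads were counted in all. The change of Mmp2 was 8.02 (SE 0.31, limma adjusted p = 1.17e-06). With fewer than 61 reads in culture, Mmp2 is in the table through its tumour reads and its direction was largely fixed. Only Mmp9 had a substantial level in culture, with groups far apart.

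The elastase and a pair of the collagenases of the chromosome 9 cluster were near or at 0 reads, or at a few CPM, in culture. Mmp12, the macrophage elastase, had 1034, 576 and 832 CPM in tumour libraries, against 0.399, 0.265 and 0.201 CPM in cultured libraries, with a change of 11.41 (SE 0.32, limma adjusted p = 6.42e-07). Mmp13, a collagenase of mesenchymal and carcinoma cells, had 465, 314 and 464 CPM in tumour libraries, against 4.93, 2.12 and 3.27 CPM in culture. Its change was 6.97 (SE 0.32, limma adjusted p = 2.06e-06). Mmp8, the neutrophil collagenase, had 50.5, 7.90 and 28.1 CPM in tumour libraries and 0 reads in culture, so that it was at least 1151-fold higher, taking 3 reads in the group as the floor (limma adjusted p = 7.03e-06). Tumour library 2 was the lowest of the tumour libraries for each of these, and most of all for Mmp8.

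Other cluster members rose from lower levels. Mmp3 and Mmp10, the stromelysins, which cut proteoglycans and fibronectin and activate other precursors, had 99.1, 103 and 103 CPM and 37.0, 29.7 and 25.9 CPM in tumour libraries. In culture Mmp3 had 5.18, 3.27 and 14.2 CPM and Mmp10 had 3.43, 1.41 and 10.8 CPM, highest in library 3 for both. Changes were 4.03 (SE 0.48) for Mmp3 and 3.02 (SE 0.65) for Mmp10. The rodent collagenase genes Mmp1a, annotated as a polymorphic pseudogene, and Mmp1b stayed at or under 2.66 CPM in every library. Reads may be split between these close copies, and the end of Mmp1b overlaps exons of Mmp12 on the other strand. The call for Mmp1b (change 3.16, limma adjusted p = 0.0341) was lost without any 1 library other than cultured library 3, with adjusted p up to 0.102. It was also lost under quantile normalization, where the change was 0.11. Mmp27 had 86 reads in tumour libraries and 0 in culture, at least 30.5-fold higher. The calls of Mmp27 and Mmp1a were also lost under quantile normalization, with changes of 0.77 and 0.15 (limma adjusted p = 0.276 and 0.789).

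Changes differed over the neighbourhood, where Mmp20 and Mmp7 were not tested. Of 8 tested genes reaching within 1000 kb on either side, 3 rose and 2 fell, beside 29.5% and 18.8% of all genes. Pdgfd was among those that rose and had 0 reads in culture, so its direction was largely fixed. Next to the cluster, Dcun1d5 had a change of -0.31 and Tmem123 one of 0.83, while Yap1, a transcriptional co-activator of the Hippo pathway, fell by 0.95. Birc3, an apoptosis inhibitor induced by NF-kB, rose by 2.18 (limma adjusted p = 0.0366). The 8 cluster MMP genes had changes from 3.02 to 11.41. Of these, Mmp12, Mmp1a, Mmp1b, Mmp8 and Mmp27 had fewer than 61 reads in culture, so their direction was largely fixed.

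**Figure D2:**
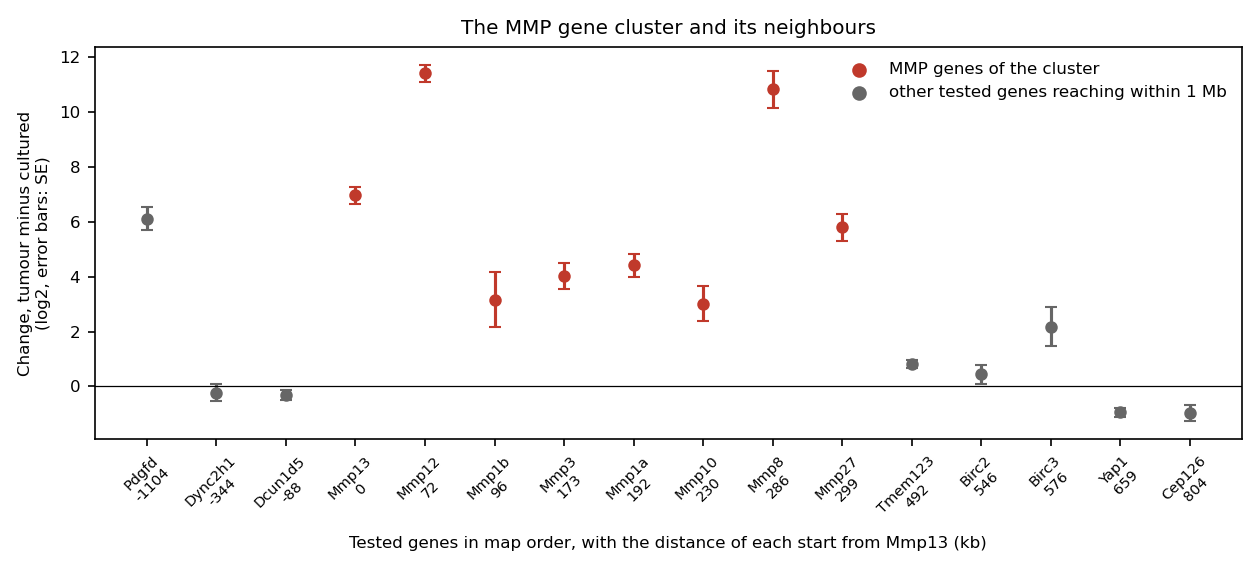
Log2 change, tumour minus cultured, with its moderated SE (vertical axis) for the 8 MMP genes of the cluster and the 8 other tested genes reaching within 1000 kb, in map order with the distance of each start from that of Mmp13 in kb. The MMP genes lie between 3.02 and 11.41, and of the flanking genes only Pdgfd, which had 0 reads in culture, lies in that range; the fitted changes of Mmp8, Mmp27 and Pdgfd depend on the reads added and are no bound.

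Membrane-bound MMPs differed among themselves. Mmp14, which activates the precursor of MMP2 at the cell surface, lies at chr14:54431612-54445364. It had 536, 527 and 451 CPM in tumour libraries, against 149, 127 and 152 CPM in cultured libraries, with a change of 1.82 (SE 0.15, limma adjusted p = 3.91e-05). It was the second MMP per length in culture, with a mean of 35.4% of the family total, and had 10.3% in tumour libraries. Mmp25, a lipid-anchored enzyme of neutrophils, had 19.8, 4.996 and 9.60 CPM in tumour libraries and 0 reads in culture, which makes it at least 459.7-fold higher. Mmp17, also lipid-anchored, had 373 tumour and 2 cultured reads, a ratio of 198 (95% counting interval 54.5 to 1644). Mmp15 had a change of 0.61 and did not pass (limma adjusted p = 0.11), with groups that did not overlap. With no variance trend it passed (adjusted p = 0.0279), and under quantile normalization it was lower (-1.625, adjusted p = 0.00166).

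Mmp24, a membrane-type enzyme best known in neurons, was the 1 MMP that fell. It had 0.0814, 0.172 and 0.106 CPM in tumour libraries, against 3.99, 1.02 and 2.15 CPM in cultured libraries, with a change of -4.02 (SE 0.56, limma adjusted p = 0.000706). These are 14 reads in tumour and 291 reads in cultured libraries. With fewer than 61 tumour reads, its place in the table rests on cultured reads, and its fall was largely fixed. Of its exon bases, 13.6% overlap BC029722 on the other strand, which had 12.6, 15.1 and 14.03 CPM in tumour libraries, against 60.5, 36.9 and 43.2 CPM in culture, and also fell (change -1.72). Whether the kit kept the strand is not given in the sources used here, so reads of this pair cannot be told apart in the overlap.

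Among the remaining MMPs, Mmp19, which is known from macrophages and skin, had 138, 73.6 and 152 CPM in tumour libraries, against 0.680, 2.10 and 0.431 CPM in culture (change 7.06, SE 0.57, limma adjusted p = 3.27e-05). Mmp23 had 4.31, 4.38 and 6.04 CPM in tumour libraries, against 0.493, 0.243 and 0.0287 CPM in culture, where the libraries differed widely (change 4.78, SE 0.83, limma adjusted p = 0.00226). Mmp11, an enzyme known from the stroma of breast carcinomas, had 28.2, 36.4 and 27.7 CPM in tumour libraries, against 16.4, 32.0 and 9.79 CPM in culture. The groups of Mmp11 overlapped and its change of 0.82 did not pass (limma adjusted p = 0.128). Without cultured library 2 it was 1.27 (adjusted p = 0.0102). Mmp28 spread from 0.172 to 7.22 CPM within culture, and its change of 0.66 had the opposite sign without cultured library 3 (-0.84) and did not pass in either case.

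The inhibitors were led by Timp1 and Timp2, with Timp3 well below them per length. Timp1 (chrX:20870166-20874735) blocks most secreted MMPs. It had 209.7, 241 and 232 CPM in tumour libraries, against 67.7, 65.0 and 102 CPM in cultured libraries, with a change of 1.57 (SE 0.20, limma adjusted p = 0.000408). Timp3, which binds the matrix and also blocks ADAM17 and the aggrecanases, had 60.9, 64.2 and 58.5 CPM in tumour libraries, against 0.0469, 0.0663 and 0.0287 CPM in culture, where it had 6 reads. Its change was 10.04 (SE 0.32, limma adjusted p = 7.35e-07), and the tumour libraries were close to each other. Timp3 lies at chr10:86300372-86349506 and shares exon bases with Syn3 on the other strand, which stayed at or under 3.27 CPM in every library. Timp2, which blocks MMPs and also takes part in the activation of MMP2 by MMP14, had 442, 544 and 532 CPM in tumour libraries, against 318, 599.7 and 481 CPM in culture. The groups of Timp2 overlapped and its change of 0.16 (SE 0.25, limma adjusted p = 0.626) turned to -0.065 with libraries centred on their median and to -0.012 under quantile normalization. It was -0.092 without cultured library 1.

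Levels were also summed per kb of exon. The length used holds all annotated exons of a gene merged, such as 7237 bases for Mmp12 and 1801 for Mmp3. Shares and ratios per length therefore depend on the annotation. The MMP family reached 825.7 ± 111 CPM per kb in tumour and 67.8 ± 5.92 in cultured libraries (SD, n = 3 each), a ratio of 12.2. The TIMP family reached 394 ± 32.2 CPM per kb in tumour and 208 ± 43.5 in cultured libraries, a ratio of 1.9. The summed MMP level over the summed TIMP level was 2.66, 1.76 and 1.95 in tumour libraries 1, 2 and 3, against 0.412, 0.28 and 0.313 in cultured libraries 1, 2 and 3. All tumour libraries thus lay above 1 and all cultured libraries below it, and the smallest two-sided p that an exact permutation test allows with 3 libraries a group is 0.1. The ADAM family summed to 292 ± 48.8 CPM per kb in tumour and 126 ± 5.20 in cultured libraries. The ADAMTS family summed to 104 ± 5.17 CPM per kb in tumour and 65.7 ± 19.2 in cultured libraries. Without division by length, mean sums in tumour libraries were 3252 CPM for MMP and 794.9 CPM for TIMP genes. In cultured libraries they were 279.4 and 544.5 CPM. These are sums of RNA and say nothing of active enzyme.

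**Figure D3:**
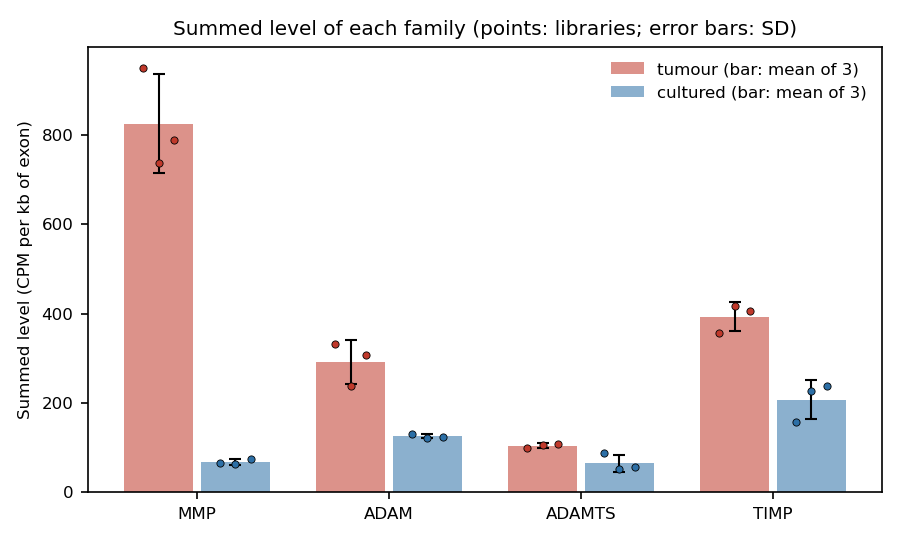
Summed level of each family in CPM per kb of exon (vertical axis) for tumour (left bars) and cultured (right bars) libraries; bars are means of 3 libraries, points are libraries and error bars are SD. The MMP family is lowest but 1 in culture and highest in the tumour libraries.

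Sheddases of the ADAM family were expressed in both groups and changed less. Adam10, which releases Notch and many adhesion molecules, had 244, 227 and 236 CPM in tumour libraries, against 84.5, 111 and 123 CPM in cultured libraries (change 1.17, SE 0.17, limma adjusted p = 0.000942). Adam17, which releases TNF and ligands of the EGF receptor, had 302, 224 and 271 CPM in tumour libraries, against 208, 133 and 172 CPM in culture. Its change of 0.65 (SE 0.21) had a limma adjusted p of 0.0342. That call was lost without tumour library 1 (adjusted p = 0.131), tumour library 3 (0.109) or cultured library 2 (0.083), and with libraries centred on the median (change 0.42, adjusted p = 0.124). It was lost as well with scaling to the epithelial list (0.0584) and with no variance trend (0.0601). Adam15 had 150.03, 152 and 181 CPM in tumour libraries, against 46.2, 67.5 and 69.8 CPM in culture (change 1.41, SE 0.20, limma adjusted p = 0.000668). Adam9, per length the first ADAM in culture, had 284, 244 and 293 CPM in tumour libraries, against 229, 212 and 145 CPM in culture. The groups of Adam9 did not overlap, but its change of 0.51 did not pass (limma adjusted p = 0.0713), and it passed without cultured library 1 (adjusted p = 0.049).

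Adam8, a protease of leukocytes, had per length a mean of 32.1% of the family total in tumour and 6.76% in cultured libraries. It was the first ADAM in tumour libraries 1 and 3, while in tumour library 2 Adam9 had 25% and Adam8 24.7%. It had 585, 273 and 478 CPM in tumour libraries, against 59.8, 28.7 and 31.3 CPM in cultured libraries, with a change of 3.49 (SE 0.36, limma adjusted p = 0.000135). Adam12 and Adam19, the meltrins, did not pass. Adam12 had 74.1, 77.4 and 58.1 CPM in tumour libraries, against 58.5, 72.6 and 72.4 CPM in culture. Adam19 had 77.4, 58.2 and 64.8 CPM in tumour libraries, against 23.2, 28.1 and 99.2 CPM in culture. Cultured library 3 stood above the rest for Adam19, and without it the change of 0.72 became 1.38 (limma adjusted p = 0.000584).

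The ADAM genes with few reads in culture were Adam33, Adam23 and Adam28. Adam33, known from smooth muscle and fibroblasts, had 5.86, 4.23 and 8.86 CPM in tumour libraries and 7 reads in culture (change 6.54, SE 0.51, limma adjusted p = 2.49e-05). Adam23, which lacks the catalytic site and is known from neurons, had 267 tumour reads and 1 cultured read, a ratio of 284 (95% counting interval 50.5 to 11256). Adam28, a lymphocyte ADAM, had 76 tumour reads and 0 in culture, at least 26.9-fold higher, and its call was lost under quantile normalization (adjusted p = 0.323). Adam1a, Adam3, Adam4 and Adam32, which are known from testis, and Adam11 and Adam22, which lack the catalytic site, stayed at or under 2.70 CPM in every library and did not pass. Under quantile normalization all 6 passed as lower, with changes from -4.30 for Adam1a to -2.41 for Adam22, and -3.97 for Adam4 and -2.86 for Adam11. Adam1a shares 63.7% of its exon bases with Gm42878 on the same strand, so its value is uncertain.

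ADAMTS enzymes that process procollagen differed in their cultured level. Adamts2, the main procollagen N-propeptidase, had 52.6, 46.8 and 56.7 CPM in tumour libraries and 0 reads in culture, which makes it at least 2123-fold higher (limma adjusted p = 5.96e-07). Adamts14, of the same function, had 96.1, 90.8 and 98.0 CPM in tumour libraries, against 62.8, 74.9 and 50.8 CPM in cultured libraries. The change of Adamts14 was 0.61 (SE 0.17, limma adjusted p = 0.0208), and the call was lost without tumour library 1, 2 or 3 (adjusted p = 0.0767, 0.0509 and 0.0839) and with centring on the median (0.084).

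Several enzymes that cut versican or aggrecan follow. Adamts4 had 90.1, 93.2 and 75.1 CPM in tumour libraries, against 25.7, 10.1 and 11.5 CPM in culture (change 2.58, SE 0.34, limma adjusted p = 0.000556). Adamts5 had 6.43, 6.13 and 15.4 CPM in tumour libraries, against 0.0704, 0.221 and 0.258 CPM in culture (change 5.61, SE 0.58). Adamts9 had 6.70, 5.49 and 8.78 CPM in tumour libraries and 10 reads in culture (change 6.24, SE 0.36), and Adamts15 had 2.66, 3.81 and 11.1 CPM and 5 reads (change 6.91, SE 0.89). Tumour library 3 was the highest for Adamts5, Adamts9 and Adamts15. Adamts1, by mean share per length the first ADAMTS gene in both groups, did not pass, with 124, 154 and 170.4 CPM in tumour libraries, against 281, 90.2 and 148 CPM in culture. The cultured libraries of Adamts1 enclosed the tumour libraries, and its change of -0.07 was 0.36 without cultured library 1. Adamts8 had a change of 0.70 that did not pass (limma adjusted p = 0.0983), and it passed without cultured library 3 (0.0382).

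Other ADAMTS genes included Adamts12, which cuts the cartilage protein COMP, with 1622 tumour reads and 1 cultured read, a ratio of 1725 (95% counting interval 309 to 68168). Adamts16 had 570 tumour and 3 cultured reads, a ratio of 202 (95% counting interval 68.8 to 983). Adamts10, a partner of fibrillin, rose by 1.95 (SE 0.19, limma adjusted p = 0.000105). Adamts7 rose by 0.66 (limma adjusted p = 0.04), a call lost without tumour library 1, 2 or 3 or cultured library 1 (adjusted p = 0.119, 0.125, 0.134 and 0.0854), and its change was -0.042 under quantile normalization. Adamts6 had a change of 0.87 that did not pass (limma adjusted p = 0.0534), while it was 1.24 without cultured library 1 (0.00255).

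The 4 ADAMTS-like genes encode secreted proteins without a protease domain and moved in opposite directions. Adamtsl1 had 534 tumour reads and 0 in culture, at least 189-fold higher. Adamtsl3 and Adamtsl4, the second a microfibril protein, rose by 1.35 and 1.63 (limma adjusted p = 0.00168 and 0.00851). Adamtsl5 had 11.7, 12.9 and 12.9 CPM in tumour libraries, against 18.5, 26.6 and 22.7 CPM in culture. It fell by 0.84 on the log2 scale (SE 0.20, limma adjusted p = 0.0106), and the call was lost without tumour library 1 (0.0551).

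Members also differed between tumour libraries. Set against the mean of the other tumour libraries, tumour library 2 had log2 differences of -2.25 for Mmp8 and -1.46 for Mmp25, the 2 of 55 members past -1 (3.64%, beside 4.03% of all genes). The 13 neutrophil markers were all lower there, with a median of -2.43 and sums of 6891, 1725 and 3440 CPM in tumour libraries 1, 2 and 3. Of these sums, the gene Il1b alone gave 3357, 1194 and 1737 CPM. Smaller differences were found for Mmp19 (-0.98), Adam28 (-0.97), Adam8 (-0.96), Mmp1b (-0.94) and Adam33 (-0.77). Adamts5 (-0.70), Mmp12 (-0.69), Adamtsl1 (-0.68), Adam32 (-0.58) and Mmp13 (-0.57) came next. Other host lists were low there too, with medians of -0.46 for the macrophage, -0.46 for the endothelial, -0.52 for the dendritic cell, -0.50 for the adipocyte and -0.35 for the fibroblast markers. The epithelial list had a median of 0.11, with 9 of its 20 genes lower. Tumour library 2 was higher for Adamts8 (0.88), Mmp24 (0.80) and Mmp28 (0.61), and less so for Mmp17 (0.40), Mmp11 (0.38) and Adam12 (0.24). The value of Mmp24 rests on 3, 7 and 4 reads in tumour libraries 1, 2 and 3. Differences between 0.03 and 0.13 were found for Mmp9, Mmp14, Mmp3, Timp1, Timp3, Adam23, Adamts1, Adamts7, Adamtsl3 and Adamtsl5. Among these, Timp3 had 6 reads in culture and Adam23 had 1. Whether the cells of any of these lists gave the RNA of these genes was not tested.

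**Figure D4:**
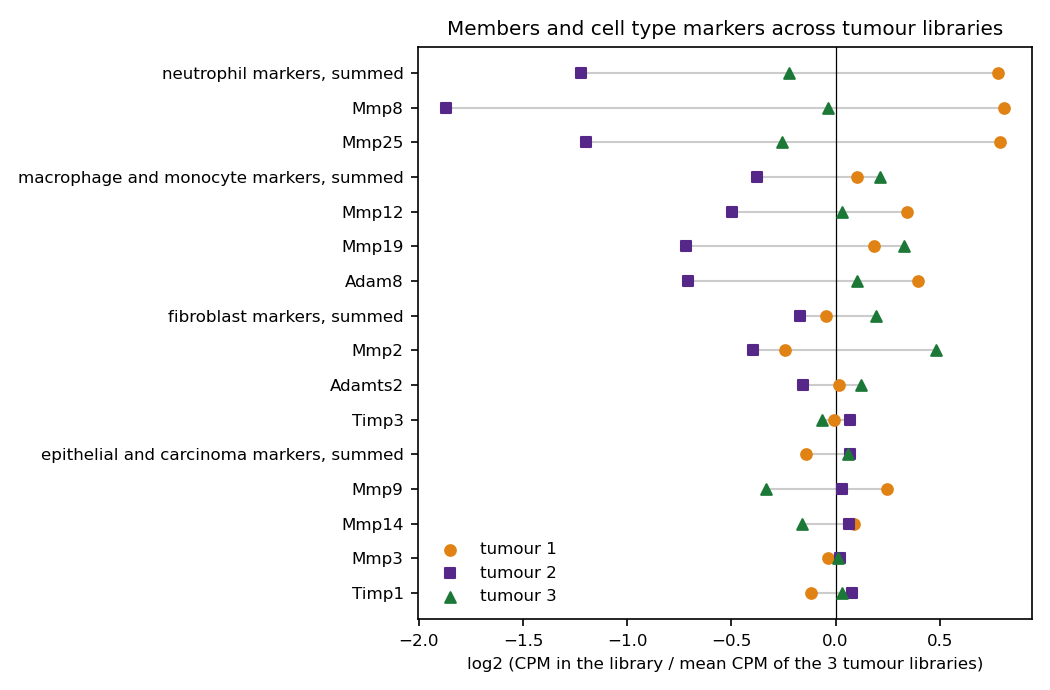
Level of chosen members and of summed cell type markers in tumour libraries 1, 2 and 3, as log2 of CPM over the mean of the 3 tumour libraries (horizontal axis). The members were picked by no set rule, and their place beside a marker sum does not give a cell source, which was not tested. Il1b is the largest part of the neutrophil marker sum. Tumour library 2 is lowest for the neutrophil marker sum (-1.22), Mmp8 (-1.87) and Mmp25 (-1.20), while the libraries lie close together for Mmp3 and Timp1.

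Genes that act with these families were read from lists, beside 29.5% of all genes higher and 18.8% lower. As for the members, list genes with fewer than 61 reads in culture and more than that in tumour libraries had their direction largely fixed. Of 22 tested activators and inhibitors outside the families, 16 rose and 2 fell, with a median change of 2.59, and 7 of the 16 had fewer than 61 reads in culture. Pcsk5, a proprotein convertase, had 16.0, 15.2 and 22.6 CPM in tumour libraries and 1 read in culture, and Tfpi2, a serine protease inhibitor of the matrix, had 17.2, 15.3 and 18.8 CPM and 5 reads. The general inhibitor gene A2m and the mast cell tryptase gene Tpsab1 had 0 reads in culture and at most 3.11 CPM in tumour libraries. Furin, the convertase that opens the precursors of membrane-type MMPs and ADAMs, rose by 1.79 and Plau, the urokinase gene, by 3.07. Those named last, Furin and Plau, were chosen after their values were seen. Reck, a membrane inhibitor of MMPs, had a change of 0.88 and did not pass.

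Of 15 tested carriers and regulators of ADAM10 and ADAM17, 5 rose and 2 fell, with a median change of 0.26. The share called is near the 48.2% of all genes. The tetraspanin genes Tspan17 and Tspan5, whose products carry ADAM10, had changes of 1.96 and -1.27, and Tspan15, of the same group, had one of -1.22. Cd9, another tetraspanin gene, had a change of 1.19 (limma adjusted p = 0.0148). Rhbdf1 and Rhbdf2, which carry ADAM17 to the surface, had changes of -0.02 and 0.52 and did not pass.

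Of 41 tested membrane proteins shed by ADAMs, 21 rose and 5 fell, with a median change of 1.06. Of the 21, 8 had fewer than 61 reads in culture, and 3 of the 41 also stand in host marker lists. The largest changes were those of the myeloid genes Trem2, Il1r2, Csf1r and Tnf, which had at most 1.22 CPM in any cultured library. All of these, like Mmp8, were lowest in tumour library 2. The ligand gene Btc fell by 3.18 and Cdh1, which encodes E-cadherin, by 0.91, both chosen after their values were seen.

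Of 26 tested matrix substrates of MMPs, 16 rose and 0 fell, with a median change of 2.38, and 7 of the 16 had fewer than 61 reads in culture. The collagen genes Col3a1, Col1a2 and Col1a1 had changes of 12.91, 11.94 and 10.88, and Igfbp3, which encodes a carrier of insulin-like growth factors, had 0 reads in culture and 60.6 to 74.3 CPM in tumour libraries. The 6 laminin chains on the list, chosen after their values were seen, had changes between -0.10 and 0.14 and did not pass. Of 19 tested substrates and partners of ADAMTS proteases, 17 rose and 1 fell (Cav1), with a median of 7.78, and 10 of the 17 had fewer than 61 reads in culture. Bgn, a small proteoglycan, and Lox, a collagen cross-linking enzyme, had changes of 12.24 and 11.11. Host markers make up 4 and 6 genes of these lists.

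Of 24 transcription factors known to act on protease promoters, 11 rose and 3 fell (Fosl1, Ets1 and Elf3), with a median change of 0.84, beside 48.2% of all genes called either way. Of the 11, 1 had fewer than 61 reads in culture. Spi1, the PU.1 gene of myeloid cells, had 129, 77.8 and 106 CPM in tumour libraries and 4 reads in culture. The AP-1 genes Fos, Fosb and Jun had changes of 5.86 (SE 0.88), 4.96 (SE 1.11) and 2.29 (SE 0.47). Fosl1, an AP-1 gene of invasive carcinoma lines, was chosen after its values were seen. It had 14.3, 15.3 and 16.3 CPM in tumour libraries, against 127, 63.3 and 47.1 CPM in culture (change -2.24, SE 0.34, limma adjusted p = 0.00111).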

How the data were processed

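RNA was sequenced from 3 tumour and 3 cultured libraries. Per the submitters' processing notes, the tools were HISAT, HTSeq and limma (no versions given) and the build was mm10. The authors deposited log2 CPM values for 13912 genes, which behave as limma's voom form with 0.5 reads added. This was tested on the values, of which 100% solved to whole reads within 0.01, at a library size 0.925 to 1.11 times the summed reads. Solved totals were 35448588 to 41469090 reads. Counting error is small beside the spread between libraries except near 0 reads, and intervals and floors cover counting error only.

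Tumour and cultured libraries were fitted on the deposited values by limma 3.58.1 (R 4.3.3) with a trended variance. Two-sided p-values were adjusted by Benjamini-Hochberg over all genes at 0.05. Changes subtract the cultured from the tumour mean on the log2 scale, which understates changes of genes near 0 reads. The fit was tested on simulated data.

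Members, lists and tests were chosen with earlier results of these data known. Full statistics go to the TIMP genes, to up to 8 passing members per family with the largest change and a group mean of at least 1 log2 CPM, to members that fell, and to the 3 most abundant per family. Of each list, up to 4 passing genes with the largest change were named. A gene with 0 cultured reads is given against a group floor of 3 reads, and one with 1 to 3 as a ratio with its 95% interval. Coordinates and merged exon lengths come from GENCODE M21 on GRCm38, the assembly of mm10, in which all 55 symbols matched. Promoters come from RefSeq and were held for 34 of 55 members. Alternatives were other scalings, weights, filters and added reads, a 2-fold limit, and each library left out.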

Additional observations from a re-analysis of the deposited data

How the results depend on the processing

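No paired analysis was possible because tumour and cultured libraries have no label number in common. Of the 39 members past the threshold, 31 kept direction and call under every alternative that kept them in the table. The 37 higher members were 32 to 39 under the other alternatives, but 19 with a mean over all libraries of at least 1 log2 CPM, which keeps 28 of 55 members. That filter left 8 MMP, 4 ADAM, 6 ADAMTS and 1 TIMP genes higher, 1 member lower (0 MMP) and 2246 genes higher in all. As deposited 61.1% of called genes were higher, with a median change of 0.08. Centring on the median gave 48.1% and -0.14, quantile normalization 35.2% and -0.32, and scaling to the epithelial list 71.8% and 0.19. Of all genes, 5513 were lower with quantile normalization, 1642 with scaling to the epithelial list and 2612 as deposited. Leaving out 1 library gave 1520 to 3301. Quantile normalization gave 9 lower members, 2 MMP and 6 ADAM among them. With a change of at least 2-fold, 1 member and 0 ADAMTS genes were lower. Leaving out 1 library gave 1 to 2 lower members and 0 to 1 ADAMTS genes.

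In the lists, 1 activator or inhibitor was lower when scaled to the epithelial list or with no variance trend, and 1 to 2 with 1 library left out. Lower ADAM carriers were 4 under quantile normalization and with library weights, and 2 to 4 with 1 library left out. Lower shed proteins were 8 with centring on the median and 3 when scaled to the epithelial list, and 2 to 7 with 1 library left out.

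Signs turned for 11 members under some alternatives, and the cause was not tested. Of these Adamts7 alone had passed. Under quantile normalization changes were -2.41 for Adam22, -3.34 for Adam3, -3.69 for Adam32, -1.625 for Mmp15 (limma adjusted p = 0.00166), -1.59 for Mmp28, -0.020 for Adam12, -0.042 for Adamts7 and -0.012 for Timp2. Centring on the median gave -0.19 for Adam12, -0.012 for Adam3 and -0.065 for Timp2. Scaling to the epithelial list gave 0.078 for Adam11, 0.043 for Adam4 and 0.038 for Adamts1. Library weights gave 0.46 for Adam11, 0.20 for Adam4 and -0.28 for Mmp28. With 1 library left out the range was -0.49 to 0.55 for Adam11, -0.065 to 0.17 for Adam12, -0.21 to 0.58 for Adam3, -0.26 to 0.10 for Adam4, -0.46 to 0.36 for Adamts1, -0.84 to 1.80 for Mmp28 and -0.092 to 0.37 for Timp2.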
